A study of Mus musculus with 12 samples.

Results

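The TNF superfamily is a set of cell surface and secreted ligands (gene symbols starting with Tnfsf) and the receptors that bind them (Tnfrsf). Their RNA was measured in Kupffer cells, macrophages that live in the liver sinusoids, from mice. Genes were chosen by symbol, and those with a probe detected above the negative controls (detection p under 0.05) on at least 2 of 12 arrays were kept. The arrays carried 49 probes for 31 such genes (11 ligands and 20 receptors), and 33 probes for 21 genes were kept (6 ligands and 15 receptors), of 10255 genes tested in all. The 10 genes not kept were the ligands Tnfsf4, Tnfsf8, Tnfsf12, Tnfsf15 and Tnfsf18 and the receptors Tnfrsf8, Tnfrsf13b, Tnfrsf17, Tnfrsf19 and Tnfrsf23.

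The cells came from livers of male C57BL/6 mice aged 8 weeks, perfused with collagenase, and were plated after a density gradient. A first set of 6 arrays held LPS (lipopolysaccharide, a bacterial cell wall component, 10 ng/ml), IL-4 (interleukin 4, a cytokine of type 2 immunity, 20 ng/ml) and M0, which the labels call a control, with 2 arrays in each group. A second set of 6 arrays held SR3335 (in the labels an inverse agonist of ROR-alpha, a nuclear receptor), SR1078 (in the labels a ROR agonist) and Veh, given DMSO alone, again with 2 arrays in each group. Treatment lasted 24 h, and no time is given for M0. The concentrations are labelled as 10 mM for SR3335 and 5 mM for SR1078, a unit that is in doubt. The compounds were therefore not compared at a matched dose. Whether the paired arrays of a group are separate cultures or mice is not stated, so each p-value reflects the spread between these samples alone, which may be technical, and the number of arrays limits the precision.

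Most TNF superfamily ligands are made as trimers on the cell surface, some are cut off and act at a distance, and each binds 1 or a few receptors. The receptors carry either a death domain, which can start cell death, or binding motifs for TRAF adaptor proteins, which switch on the transcription factor NF-kB, and a few are decoys that bind a ligand without signalling. In the liver, macrophages use these pairs to kill infected or damaged cells and to talk to lymphocytes.

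RefSeq promoter windows (GRCm38.p6, 250 bases before to 50 bases after the start) were available for 16 of the 21 genes, 19 windows in all. They were searched on both strands for 4 motifs, namely the NF-kB consensus, a pair of GAAA blocks with any 2 bases between them (a form of the interferon response element), and the STAT-like TTCNNNGAA and its variant with 4 bases between TTC and GAA, which match both strands at the same place. Of all 32851 windows, 8.46% held the NF-kB consensus, 3.44% the GAAA pair, 8.3% TTCNNNGAA and 6.95% its variant. Among the 16 genes, 2 held the NF-kB consensus (Tnfrsf9 and Tnfrsf25) and 3 held the GAAA pair (Tnfrsf1b, Tnfrsf14 and Tnfsf13b). TTCNNNGAA was held by 5 and its variant by 1. Counted by window, as the rates above are, 2, 3, 5 and 2 of the 19 held these motifs, in the same order. The 2 with the variant are overlapping windows of Tnfsf13b. A match describes the letters of the window and is not shown to be a binding site. Among genes that passed for LPS against M0, the windows of Tnfsf10 and Tnfrsf11a held neither the NF-kB consensus nor the GAAA pair. Tnfsf9 and Tnfrsf22 had no window. Every stretch that matches a motif is in capitals below. The 5 windows shown were chosen because they hold either motif and belong to the other genes that passed, of which Tnfsf13b was lower with LPS. They are the second of the Tnfrsf9 windows (chr4:150927749-150928048, plus strand), the windows of Tnfrsf1b (chr4:145246821-145247120, minus strand) and Tnfrsf14 (chr4:154928028-154928327, minus strand), the second window of Tnfrsf25 (chr4:152116093-152116392, plus strand), and the second window of Tnfsf13b (chr8:10006383-10006682, plus strand).
Tnfrsf9: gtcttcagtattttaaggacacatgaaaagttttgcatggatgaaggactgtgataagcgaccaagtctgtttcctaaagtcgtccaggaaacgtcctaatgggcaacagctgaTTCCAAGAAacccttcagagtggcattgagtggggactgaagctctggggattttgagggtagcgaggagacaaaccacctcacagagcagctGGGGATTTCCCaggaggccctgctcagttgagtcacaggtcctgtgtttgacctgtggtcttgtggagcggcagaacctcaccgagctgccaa
Tnfrsf1b: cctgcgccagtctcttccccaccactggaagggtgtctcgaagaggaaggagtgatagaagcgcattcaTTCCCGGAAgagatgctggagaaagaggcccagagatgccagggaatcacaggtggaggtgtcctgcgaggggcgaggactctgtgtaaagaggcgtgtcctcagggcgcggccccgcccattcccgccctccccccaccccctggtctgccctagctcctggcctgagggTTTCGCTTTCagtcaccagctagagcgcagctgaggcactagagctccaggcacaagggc
Tnfrsf14: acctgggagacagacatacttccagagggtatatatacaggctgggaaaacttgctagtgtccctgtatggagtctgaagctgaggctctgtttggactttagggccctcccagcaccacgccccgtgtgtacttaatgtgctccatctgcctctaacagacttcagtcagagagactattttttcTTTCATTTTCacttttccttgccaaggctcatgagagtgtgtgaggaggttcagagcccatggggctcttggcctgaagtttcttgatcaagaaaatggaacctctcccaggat
Tnfrsf25: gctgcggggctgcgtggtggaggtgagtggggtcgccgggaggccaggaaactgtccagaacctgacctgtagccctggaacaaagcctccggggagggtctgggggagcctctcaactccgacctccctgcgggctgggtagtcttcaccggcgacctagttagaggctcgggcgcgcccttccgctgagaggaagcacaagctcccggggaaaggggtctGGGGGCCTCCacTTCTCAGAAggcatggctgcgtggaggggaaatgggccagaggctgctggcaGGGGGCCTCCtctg
Tnfsf13b: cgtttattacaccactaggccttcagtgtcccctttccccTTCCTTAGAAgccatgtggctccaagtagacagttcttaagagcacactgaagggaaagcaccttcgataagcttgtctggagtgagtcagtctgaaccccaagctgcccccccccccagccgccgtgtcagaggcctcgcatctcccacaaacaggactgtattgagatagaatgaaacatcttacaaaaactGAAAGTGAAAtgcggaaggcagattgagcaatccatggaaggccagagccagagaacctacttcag
The NF-kB stretch of Tnfrsf9 begins 43 bases before the start, and those of Tnfrsf25 begin 28 bases before and 36 bases after it. The GAAA pair begins 10 bases before it in Tnfrsf1b, 64 bases before it in Tnfrsf14 (both on the other strand) and 16 bases before it in Tnfsf13b.

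Each array detected 11474 to 12623 probes (44.7% to 49.1%), and replicate arrays correlated across genes at r = 0.9916 to 0.997. Of 12 Kupffer cell markers 9 were kept, and all 9 were detected on every array, although LPS changed several of them (3 higher, 4 lower). Of other cell types, 8 of 8 endothelial, 8 of 12 T and NK cell, 4 of 8 stellate cell, 3 of 6 dendritic cell, 3 of 6 B cell, 3 of 6 hepatocyte and 3 of 7 neutrophil markers were kept. Among those not kept were Alb, the main secreted protein of hepatocytes, Col1a1 of stellate cells, Pax5 and Ms4a1 of B cells and Mpo of neutrophils. Other markers of these cells were kept, among them Ttr of hepatocytes and Dcn of stellate cells, both detected on all 12 arrays. The Kupffer cell marker Cd5l was also detected on no array, and Csf1r and Cd68 had no probe, so a marker not kept does not show that its cells were absent. The summed signals of the kept hepatocyte markers were 272 to 410 in the first array set and 4588 to 7093 in the second, and those of endothelial markers 5358 to 8976 and 17878 to 18561. Those of stellate cell markers were 512 to 1422 and 3623 to 5292. In RNA from a mixed sample, fewer cells of a type and less RNA per cell cannot be told apart. Array set, culture and groups cannot be told apart either, so tests stayed within a set.

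After LPS the ligands Tnfsf9 and Tnfsf10 and the receptors Tnfrsf1b, Tnfrsf9, Tnfrsf14, Tnfrsf25, Tnfrsf22 and Tnfrsf11a were higher than in M0, while the ligand Tnfsf13b was lower. In limma, 9 of 21 members passed at an adjusted p under 0.05, 8 higher and 1 lower (42.9%, against 30.3% of all genes). The median log2 difference of the 21 members was 0.29, against -0.03 over all genes. Among ligands 2 of 6 were higher and 1 lower, and among receptors 6 of 15 were higher and 0 lower. Of all genes 13.5% were higher and 16.9% lower. The LPS and M0 arrays did not overlap for 15 of 21 members, against 65.6% of all genes.

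Tnfsf10 encodes TRAIL, a ligand that kills cells through the death receptor Tnfrsf10b. Its normalized signal on the log2 scale was 6.99 and 6.38 on the LPS arrays, 5.51 and 5.71 on the IL-4 arrays, and 5.33 and 5.45 on the M0 arrays. Both LPS arrays lay above the other 4, on which the probe was not detected, so in the background-corrected values the rise over M0 was at least 1.902-fold (adjusted p = 0.000631, measured log2 difference 1.30 ± 0.17, SE) and that over IL-4 at least 1.97-fold (adjusted p = 0.00142), both by limma. These bounds hold for that processing alone. In the authors' values, which had no such correction, the differences were 0.41 over M0 and 0.35 over IL-4, and both passed. The receptor Tnfrsf10b had 7.86 and 8.21 with LPS, 7.77 and 7.99 with IL-4 and 7.76 and 7.73 in M0, and its difference of 0.29 ± 0.16 from M0 did not pass.

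Tnfsf9 and Tnfrsf9 are a ligand and its receptor, through which antigen-presenting cells costimulate T cells. Tnfsf9 had 7.28 and 7.47 with LPS, 5.91 and 6.10 with IL-4 and 6.55 and 6.44 in M0. Tnfrsf9 had 7.61 and 7.62 with LPS, 6.32 and 6.00 with IL-4 and 6.55 and 6.76 in M0. For both genes the LPS arrays were the highest, the IL-4 arrays the lowest and M0 between them, with no overlap between groups. Over M0, Tnfsf9 was higher with LPS by 0.88 ± 0.11 (1.84-fold, limma adjusted p = 0.000549) and Tnfrsf9 by 0.96 ± 0.13 (1.95-fold, limma adjusted p = 0.00071). With IL-4, Tnfsf9 differed from M0 by -0.49 ± 0.11 (1.40-fold lower, limma adjusted p = 0.0185) and Tnfrsf9 by -0.49 ± 0.13 (1.40-fold lower, limma adjusted p = 0.0312). LPS and IL-4 were thus on opposite sides of the M0 arrays that both comparisons share. Between LPS and IL-4 themselves, Tnfrsf9 differed by 1.45 ± 0.13 (2.74-fold, limma adjusted p = 5.2e-05) and Tnfsf9 by 1.37 ± 0.11 (2.59-fold, limma adjusted p = 3.44e-05). The IL-4 calls were lost in several fits that left out an array, which leave 1 array in a group. For Tnfrsf9 the call was lost without M0 replicate 1 (-0.59), M0 replicate 2 (-0.39) or IL-4 replicate 2 (-0.33), and for Tnfsf9 without M0 replicate 1 (-0.44), M0 replicate 2 (-0.54) or IL-4 replicate 1 (-0.39). Both IL-4 calls were also lost in the values normalized by the authors, where the differences were -0.17 for Tnfrsf9 and -0.16 for Tnfsf9, while the LPS calls passed in every alternative fit run. Their size depended on the background correction. In the authors' values LPS exceeded M0 by 0.40 for Tnfsf9 and 0.48 for Tnfrsf9, and IL-4 by 0.56 for Tnfsf9 and 0.65 for Tnfrsf9.

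**Figure D1:**
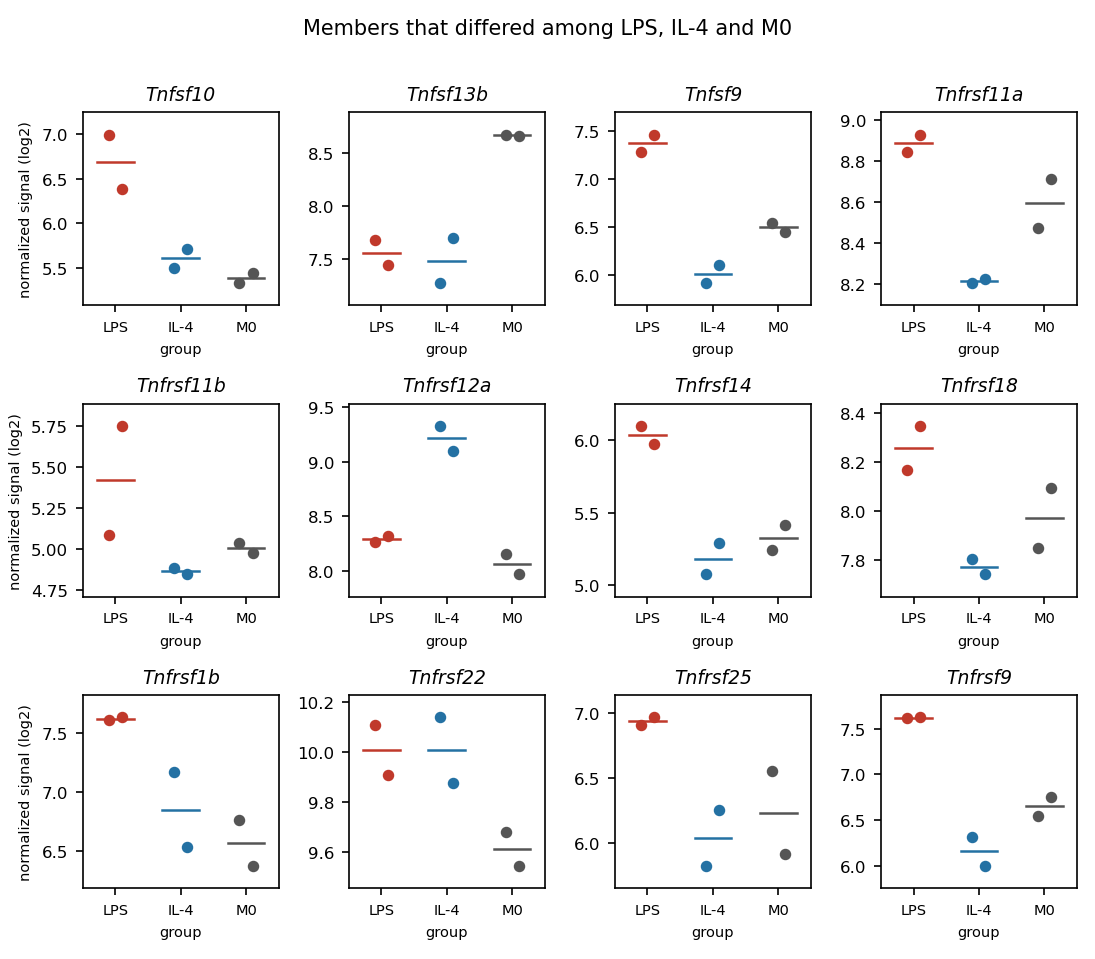
Normalized signal (log2, each panel with its own axis that does not start at 0) of the 12 members that passed in at least 1 of the comparisons among LPS, IL-4 and M0, with 1 point per array and a line at each group's mean. Tnfsf9 and Tnfrsf9 are highest with LPS and lowest with IL-4, Tnfrsf12a is highest with IL-4, at 9.33 and 9.10, and Tnfsf13b is highest in M0.

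Tnfsf13b encodes BAFF, a survival factor of B cells made by myeloid cells. It had 7.68 and 7.44 with LPS, 7.28 and 7.70 with IL-4 and 8.67 and 8.65 in M0. Both treatments lay below M0 and overlapped each other. The difference from M0 was -1.10 ± 0.14 with LPS (2.14-fold lower, limma adjusted p = 0.000555) and -1.17 ± 0.14 with IL-4 (2.25-fold lower, limma adjusted p = 0.001), again against the same M0 arrays. LPS and IL-4 differed by 0.07, with a 95% interval of -0.25 to 0.40. M0 has no stated time, so a difference in culture time cannot be told apart from treatment where both treatments moved alike. Both changes passed in every alternative fit run and on the second Tnfsf13b probe (-1.05 and -1.14).

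The remaining ligands showed no passing difference in this set. Tnfsf14, or LIGHT, had a log2 signal of 6.03 to 6.84 over the 6 arrays, and its difference from M0 was -0.19 ± 0.17 with LPS and -0.42 ± 0.17 with IL-4. Tnfsf11, or RANKL, the factor that drives osteoclasts, was detected on 2 of 6 arrays of the first set, at 4.93 to 5.96, and Tnfsfm13, a read-through transcript joining Tnfsf12 and Tnfsf13, on 0 of 6. No levels or changes could be given for these 2 at this signal.

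Among receptors, Tnfrsf1b, the TNF receptor found mainly on immune cells, had 7.61 and 7.64 with LPS, 7.17 and 6.53 with IL-4 and 6.77 and 6.38 in M0. The LPS arrays lay above all others, and the IL-4 and M0 arrays overlapped. It was higher with LPS than in M0 by 1.05 ± 0.20 (2.08-fold, limma adjusted p = 0.00406) and higher than with IL-4 by 0.77 ± 0.20 (1.71-fold, limma adjusted p = 0.0153). The second of these was lost without LPS replicate 1 (0.78), LPS replicate 2 (0.76) or IL-4 replicate 2 (0.45), whereas the first passed in every alternative fit run. Tnfrsf1a, the TNF receptor with a death domain that most cells carry, had 8.29 and 8.17 with LPS, 8.60 and 7.81 with IL-4 and 7.72 and 7.82 in M0. Its difference of 0.46 ± 0.22 between LPS and M0 did not pass (limma adjusted p = 0.161).

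Tnfrsf14, the receptor of LIGHT, had 6.10 and 5.97 with LPS, 5.07 and 5.29 with IL-4 and 5.24 and 5.41 in M0. It was detected on the LPS arrays alone in this set, and in the background-corrected values was at least 1.21-fold higher than in M0 (limma adjusted p = 0.00321, measured log2 difference 0.71 ± 0.13) and at least 1.25-fold higher than with IL-4 (limma adjusted p = 0.00094). In the authors' values, which had no such correction, the differences were smaller than these bounds, at 0.19 over M0, which did not pass, and 0.24 over IL-4, which did. Tnfrsf25, a death domain receptor that costimulates T cells, had 6.91 and 6.97 with LPS, 5.83 and 6.26 with IL-4 and 6.55 and 5.92 in M0. It was higher with LPS than in M0 by 0.70 ± 0.20 (limma adjusted p = 0.0297) and than with IL-4 by 0.89 ± 0.20 (1.85-fold, limma adjusted p = 0.00892). The call over M0 was lost without M0 replicate 2 (0.38), LPS replicate 1 (0.73) or LPS replicate 2 (0.67), and that over IL-4 without IL-4 replicate 1 (0.67).

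Tnfrsf22, a decoy receptor of TRAIL in the mouse, had 10.11 and 9.91 with LPS, 10.14 and 9.87 with IL-4 and 9.68 and 9.54 in M0. Both treated groups lay above M0 by 0.40 ± 0.12. The LPS difference passed (limma adjusted p = 0.0386), and that of IL-4 did not (limma adjusted p = 0.0535). That of IL-4 passed without background correction (0.35), in the authors' values (0.35), with a stricter filter on dim probes and with another variance choice. Tnfrsf11a encodes RANK, the receptor of RANKL. Its signals were 8.85 and 8.93 with LPS, 8.21 and 8.23 with IL-4 and 8.48 and 8.71 in M0, with no overlap. It differed from M0 by 0.29 ± 0.09 with LPS (limma adjusted p = 0.0385) and by -0.38 ± 0.09 with IL-4 (limma adjusted p = 0.0204), and LPS exceeded IL-4 by 0.67 ± 0.09 (1.59-fold, limma adjusted p = 0.000549), which passed in every alternative fit run. The calls of the smaller differences were sensitive to leaving out an array and to scaling. Centring arrays on their medians, which put the median of all genes at -0.13 for LPS minus M0, gave 0.24 for Tnfrsf22 and 0.16 for Tnfrsf11a, and neither passed. The LPS call of Tnfrsf22 was lost without M0 replicate 1 (0.46), M0 replicate 2 (0.33) or LPS replicate 1 (0.30), and that of Tnfrsf11a without M0 replicate 1 (0.17), LPS replicate 1 (0.33) or LPS replicate 2 (0.25). The IL-4 call of Tnfrsf11a was lost without M0 replicate 2 (-0.26) or IL-4 replicate 1 (-0.37).

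With IL-4, 5 of 21 members passed against M0, 1 higher and 4 lower (23.8%, against 19.6% of all genes, 8.46% higher and 11.1% lower). The IL-4 and M0 arrays did not overlap for 15 members, against 56.8% of all genes. The 4 lower ones were Tnfsf13b, Tnfrsf9, Tnfsf9 and Tnfrsf11a. The median log2 difference of the members was -0.14, against -0.03 over all genes. The rise was that of Tnfrsf12a, the receptor of TWEAK, which is known for its part in tissue repair. Tnfrsf12a had 8.27 and 8.32 with LPS, 9.33 and 9.10 with IL-4 and 8.15 and 7.97 in M0. The IL-4 arrays lay above all 4 others. It was higher with IL-4 than in M0 by 1.15 ± 0.11 (2.23-fold, limma adjusted p = 0.000232) and differed between LPS and IL-4 by -0.92 ± 0.11 (1.89-fold lower with LPS, limma adjusted p = 0.000236). LPS and M0 differed by 0.24 ± 0.11, which did not pass. Its ligand Tnfsf12 was among the genes without a detected probe.

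Between LPS and IL-4, 10 of 21 members passed, 9 higher and 1 lower with LPS (47.6%, against 36.5% of all genes, 18.0% higher and 18.4% lower). The LPS and IL-4 arrays did not overlap for 12 members, against 63.5% of all genes. Besides the genes above, these included Tnfrsf18, a costimulatory receptor of T cells, which had 8.17 and 8.35 with LPS, 7.80 and 7.74 with IL-4 and 7.85 and 8.09 in M0. Its difference was 0.49 ± 0.16 (limma adjusted p = 0.0405), and the call was lost without LPS replicate 1 (0.57), LPS replicate 2 (0.39), IL-4 replicate 1 (0.51) or IL-4 replicate 2 (0.45). The 10 also include Tnfrsf11b, or osteoprotegerin, a secreted decoy of RANKL, whose probe was not detected on any array of the first set, so no fold is given. It had 5.09 and 5.75 with LPS and 4.88 and 4.84 with IL-4 (limma adjusted p = 0.0388), and the call was lost without LPS replicate 2 (0.22), IL-4 replicate 1 (0.58) or IL-4 replicate 2 (0.54). The other receptors gave no call in any of these 3 comparisons. Tnfrsf4, another costimulator of T cells, had 7.65 to 8.09 over the 6 arrays, Tnfrsf21, a death domain receptor, 11.09 to 11.39, and Tnfrsf26 6.84 to 7.83. Tnfrsf13c, the BAFF receptor of B cells, was detected on 0 of 6.

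**Figure D2:**
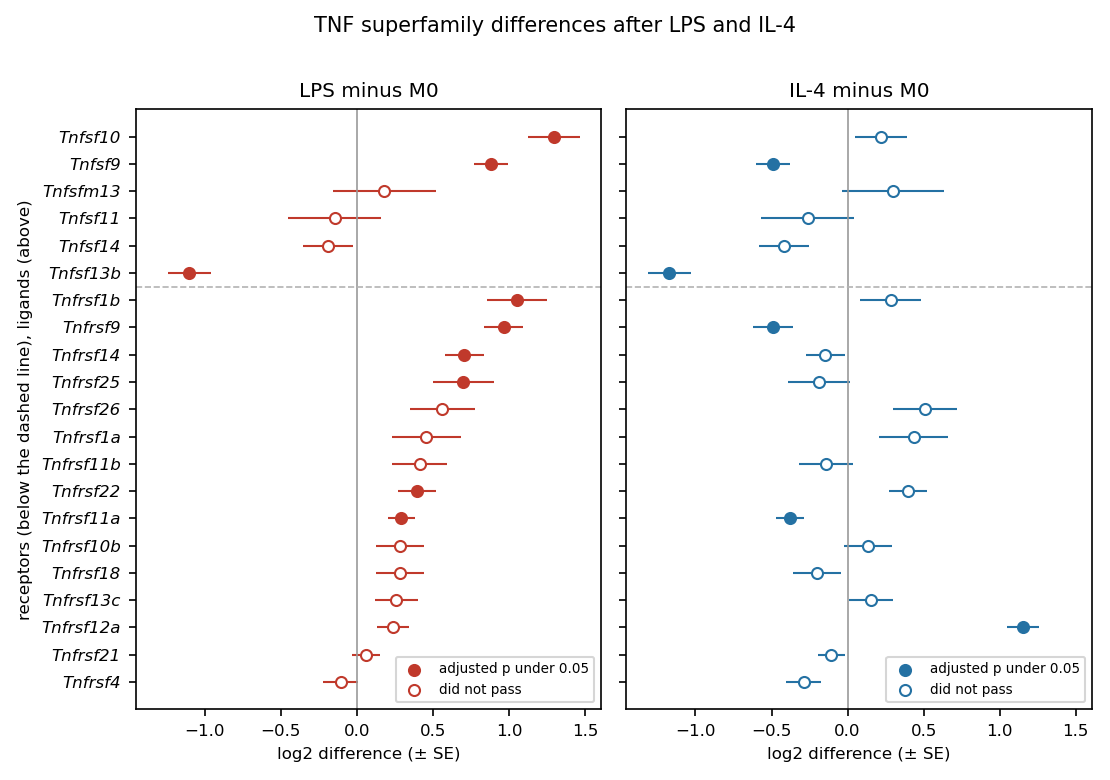
Log2 differences of LPS minus M0 and of IL-4 minus M0 for the 21 members, ligands above and receptors below the dashed line, with bars of 1 SE and filled points at an adjusted p under 0.05. The same M0 arrays enter both panels. Filled points number 8 above and 1 below 0 with LPS, and 1 above and 4 below 0 with IL-4.

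Markers of other cell types moved in the same comparisons. The summed signal of the 8 kept T and NK cell markers was 4003 to 4005 with LPS, 3763 to 3937 with IL-4 and 5399 to 5832 in M0, with 6 of 8 lower after LPS (16.9% of all genes were lower) and 5 of 8 lower after IL-4 (11.1% of all genes). Of the LPS calls, those of Cd3g and Nkg7 passed without any one array, and those of Thy1, Cd3d, Cd3e and Klrb1c were each lost without 2 to 4 of the arrays. Of 8 endothelial markers 3 were higher and 3 lower with LPS, and 4 higher and 1 lower with IL-4. Of all genes 13.5% were higher with LPS and 8.46% with IL-4. The endothelial sum was 5358 to 5402 with LPS, 8090 to 8976 with IL-4 and 5464 to 5539 in M0, so that it was high on the IL-4 arrays, as Tnfrsf12a was. Cd4, Cd8a and Gzma were detected on no array. Tnfrsf4, Tnfrsf9, Tnfrsf18 and Tnfrsf25 are also expressed by T cells, and the part of these markers in the results was not tested. Of 3 kept B cell markers 1, Cd79b, was lower with LPS by -0.62 ± 0.10 against M0 (limma adjusted p = 0.00209). The list median was -0.05, and Cd79a and Blk, both near background in these groups, did not pass. Of 3 dendritic cell markers 1, Ccr7, was higher by 0.44 ± 0.13 (limma adjusted p = 0.0286, list median -0.07, Zbtb46 -0.07 and Siglech -0.14). Of 4 stellate cell markers 2 were higher with LPS, and the sum of the 4 was 1300 to 1422 with LPS and 713 to 745 in M0. Of the neutrophil markers 1 of 3 was higher and 2 of 3 were lower with LPS, but 0 of 3 were detected on both LPS arrays. The calls of Camp and Elane were lost under 4 of 13 and 5 of 12 alternatives. Of the hepatocyte markers 0 of 3 passed in any comparison within a set, with list medians from -0.32 (IL-4 against M0) to 0.33 (SR3335 against Veh). Their part in the results was not tested either. Leaving out 1 array gave a Ccr7 difference of 0.25 to 0.63, and the call was lost without M0 replicate 1, M0 replicate 2 or LPS replicate 2.

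Of 12 kept superfamily genes named otherwise, 2 were higher and 2 lower with LPS than in M0 (13.5% and 16.9% of all genes), 0 higher and 3 lower with IL-4 (8.46% and 11.1%), and 4 higher and 0 lower with LPS than with IL-4 (18.0% and 18.4%). The LPS counts against M0 were thus near the rate of all genes. The list medians were 0.23, -0.22 and 0.31, against -0.03, -0.03 and 0.01 over all genes. Tnf itself had 12.23 and 12.36 with LPS, 11.67 and 11.56 with IL-4 and 12.07 and 11.89 in M0. LPS exceeded IL-4 by 0.68 ± 0.09 for Tnf (limma adjusted p = 0.000411), whereas the differences from M0, 0.32 with LPS and -0.37 with IL-4, each lost their call without 2 of the arrays, ranging from 0.23 to 0.41 and from -0.45 to -0.28. Fas, the death receptor of Fasl, was higher with LPS than in M0 by 0.83 ± 0.11 (limma adjusted p = 0.000586), with 10.27 and 10.34 on the LPS arrays and 9.31 and 9.63 on the M0 arrays. Cd27, a costimulator of lymphocytes, differed by -1.06 ± 0.19 with LPS (limma adjusted p = 0.00332), on the arrays in which the T and NK cell markers were lower. The IL-4 differences of Cd27 and Fasl from M0, -0.86 and -0.46, lost their call without M0 replicate 2, and that of Cd27 also without M0 replicate 1 or IL-4 replicate 1 (ranges -1.01 to -0.69 and -0.55 to -0.37). Fas was also higher with LPS than with IL-4, by 0.93 ± 0.11 (limma adjusted p = 0.000253).

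Of 25 kept adaptors, kinases and regulators of the receptors, 7 were higher and 0 lower with LPS than in M0 (13.5% and 16.9% of all genes), 3 higher and 5 lower with IL-4 (8.46% and 11.1%), and 9 higher and 1 lower with LPS than with IL-4 (18.0% and 18.4%). The list medians were 0.08, -0.08 and 0.23. The largest rises with LPS were those of Tnip1 (1.497 ± 0.09) and Tnfaip3 (1.11 ± 0.08), which both restrain NF-kB signalling, and of Traf1 (0.78 ± 0.09) and Mlkl (0.74 ± 0.08), the executor of necroptosis, each with a limma adjusted p of at most 0.000346. With IL-4, Traf2, the main adaptor of Tnfrsf1b, was lower by -0.75 ± 0.10 against M0 (limma adjusted p = 0.00148), with 6.29 and 6.40 on the IL-4 arrays and 7.04 and 7.15 on the M0 arrays. Traf5 was higher by 0.71 ± 0.16, a call lost without M0 replicate 1, M0 replicate 2 or IL-4 replicate 1 (0.51 to 0.91). Between LPS and IL-4, Tnip1 differed by 1.86 ± 0.09 and Traf1 by 1.19 ± 0.09. Of 6 kept genes of the second, non-canonical pathway of NF-kB, 0 passed with LPS against M0 (30.3% of all genes) and 3 were lower with IL-4 (11.1% of all genes). With LPS, 4 were higher than with IL-4 (18.0% of all genes), among them Nfkb2 (0.80 ± 0.17) and Traf2 (0.72 ± 0.10). The medians of this list were 0.09, -0.38 and 0.59. Traf2, Map3k14, Birc2 and Birc3 are also in the adaptor list, so the counts of these lists share genes. The IL-4 calls of Relb (-0.34) and Map3k14 (-0.42) against M0 were lost under 6 and 4 of 13 alternatives. Of 5 genes that release ligands and receptors from the surface, Adam17, the protease that cuts off TNF and its receptors, was lower with LPS by -0.72 ± 0.12 and with IL-4 by -0.83 ± 0.12 (limma adjusted p = 0.00224 and 0.00227), and Timp3, an inhibitor of Adam17, was lower with LPS by -0.38 ± 0.08, a call that was lost without M0 replicate 1 or LPS replicate 1 (-0.47 to -0.30). Timp3 was also lower with LPS than with IL-4, by -0.55 ± 0.08 (limma adjusted p = 0.00117).

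With SR3335, 3 of 21 members passed against Veh, 2 higher and 1 lower (14.3%, against 4.63% of all genes, 2.09% higher and 2.55% lower). With SR1078, 2 of 21 passed against the same Veh arrays, 1 higher and 1 lower (9.52%, against 1.40% of all genes, 1.05% higher and 0.351% lower). All of them were receptors, of which 15 were tested. That 0 of 6 ligands passed with either compound is near the rate of all genes, so it sets no contrast with receptors. Of these ligands, Tnfsf11 was detected on 3 and Tnfsfm13 on 4 of the 6 arrays of this set. Between SR3335 and SR1078, whose labelled doses differ, 5 of 21 members passed, 3 higher and 2 lower with SR3335 (23.8%, against 4.59% of all genes, 2.11% higher and 2.49% lower). Groups did not overlap for 12 members with SR3335 against Veh (54.9% of all genes), 13 with SR1078 against Veh (53.6%) and 15 between the compounds (54.1%). The medians of the members, 0.07 with SR3335 and -0.05 with SR1078, stood beside -0.01 and -0.0043 over all genes.

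Tnfrsf9 had log2 signals of 9.09 and 8.87 with SR3335, 8.22 and 8.10 with SR1078 and 8.15 and 8.29 with Veh. The SR3335 arrays lay above the other 4, and SR1078 overlapped Veh. Tnfrsf9 was higher with SR3335 than with Veh by 0.76 ± 0.13 (1.69-fold, limma adjusted p = 0.0155) and than with SR1078 by 0.82 ± 0.13 (1.76-fold, limma adjusted p = 0.0117). SR1078 and Veh differed by -0.06, with a 95% interval of -0.36 to 0.23. The second Tnfrsf9 probe gave 0.37 ± 0.25 for SR3335 against Veh and did not pass. Its ligand Tnfsf9 had 6.76 and 6.99 with SR3335, 6.38 and 6.48 with SR1078 and 6.64 and 6.74 with Veh, and did not pass in any of these comparisons.

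Tnfrsf12a had 10.24 and 10.12 with SR3335, 10.08 and 10.03 with SR1078 and 9.49 and 9.64 with Veh. Both compounds lay above vehicle without overlap. The difference was 0.61 ± 0.11 with SR3335 (1.53-fold, limma adjusted p = 0.0155) and 0.49 ± 0.11 with SR1078 (limma adjusted p = 0.0656), which did not pass. Tnfrsf11a had 8.89 and 8.84 with SR3335, 8.81 and 8.89 with SR1078 and 9.30 and 9.24 with Veh, so that both compounds lay below vehicle. Its difference with SR3335 was -0.41 ± 0.09 (1.33-fold lower, limma adjusted p = 0.042), a call lost in 8 of 13 alternative fits. With SR1078 it was -0.42 ± 0.09 (limma adjusted p = 0.0656), which did not pass. The SR1078 differences of Tnfrsf12a and Tnfrsf11a passed without background correction (0.43 and -0.35) and in the authors' values (0.44 and -0.35). Both also passed with a stricter filter on dim probes and with another variance choice. Between the compounds, the difference was 0.12 for Tnfrsf12a, with a 95% interval of -0.12 to 0.36, and 0.01 for Tnfrsf11a, with an interval of -0.19 to 0.22.

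**Figure D3:**
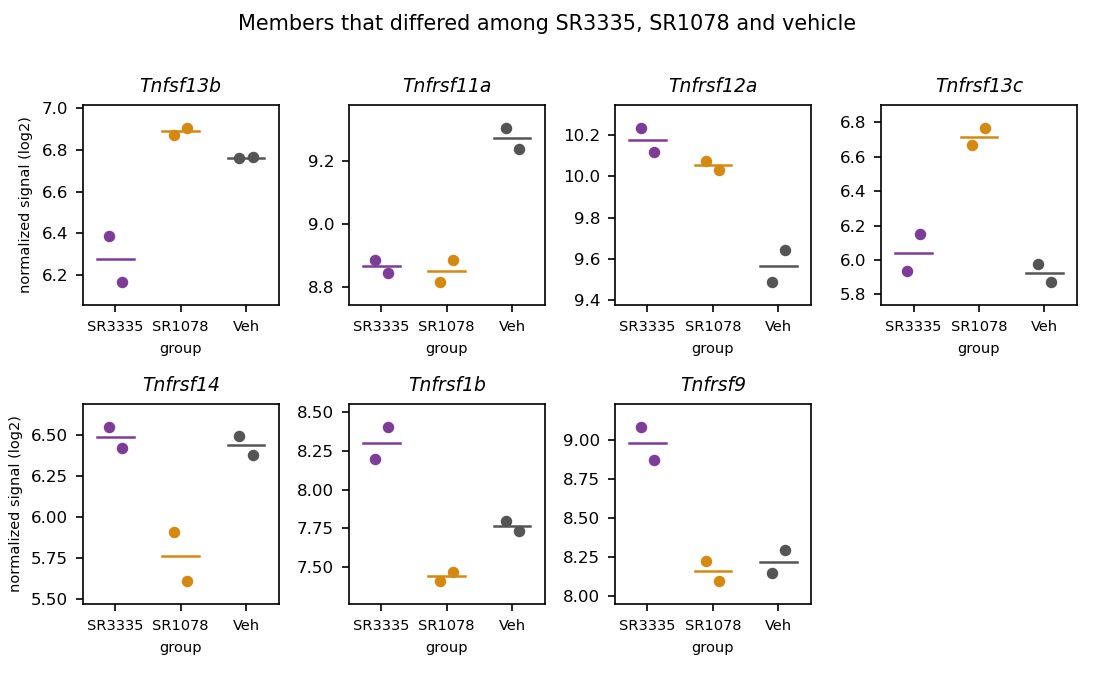
Normalized signal (log2, each panel with its own axis that does not start at 0) of the 7 members that passed in at least 1 of the comparisons among SR3335, SR1078 and Veh, with 1 point per array and a line at each group's mean. Tnfrsf9 is high with SR3335, and Tnfrsf13c is high and Tnfrsf14 low with SR1078. For Tnfrsf12a and Tnfrsf11a the arrays of both compounds lie apart from vehicle. In the processing shown only their SR3335 differences passed, and their SR1078 differences passed in some other fits.

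Tnfrsf14 had 6.55 and 6.42 with SR3335, 5.91 and 5.61 with SR1078 and 6.49 and 6.38 with Veh. The SR1078 arrays were the lowest and did not overlap the others. It was lower with SR1078 than with Veh by -0.67 ± 0.13 (1.60-fold, limma adjusted p = 0.0445), and SR3335 exceeded SR1078 by 0.72 ± 0.13 (1.65-fold, limma adjusted p = 0.0174). The first of these calls held in 2 of 13 alternative fits. Tnfrsf1b had 8.20 and 8.40 with SR3335, 7.41 and 7.47 with SR1078 and 7.80 and 7.73 with Veh. The 3 groups did not overlap, with vehicle between the compounds. SR3335 exceeded SR1078 by 0.86 ± 0.20 (1.81-fold, limma adjusted p = 0.0468), a call lost in 8 of 13 alternative fits. The differences from vehicle, 0.53 and -0.32, did not pass. That of SR3335 passed without background correction (0.37), in the authors' values (0.37) and with each array set on its own (0.50). Tnfsf13b had 6.39 and 6.16 with SR3335, 6.87 and 6.91 with SR1078 and 6.76 and 6.76 with Veh, with the SR3335 arrays lowest. SR3335 differed from SR1078 by -0.61 ± 0.14 (1.53-fold lower, limma adjusted p = 0.0472), and from Veh by -0.49 ± 0.14, which did not pass. The difference from Veh passed with each array set fitted on its own (-0.48).

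**Figure D4:**
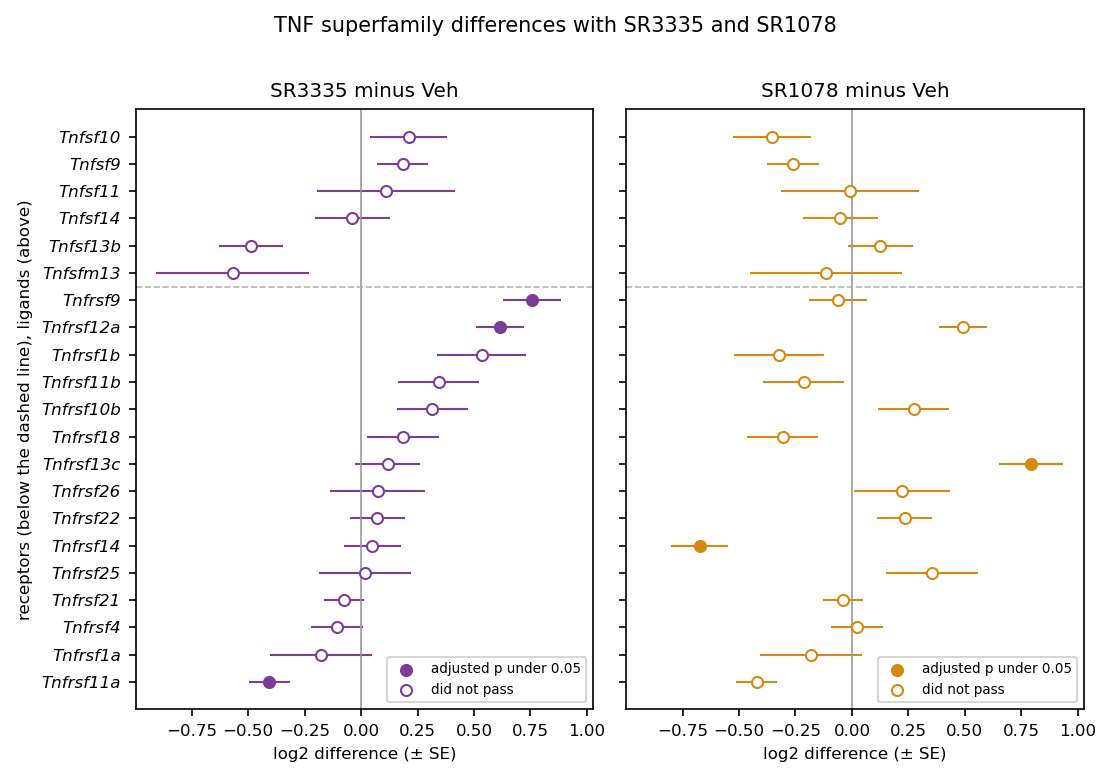
Log2 differences of SR3335 minus Veh and of SR1078 minus Veh for the 21 members, ligands above and receptors below the dashed line, with bars of 1 SE and filled points at an adjusted p under 0.05. The same Veh arrays enter both panels. The filled points are Tnfrsf9, Tnfrsf12a and Tnfrsf11a with SR3335, and Tnfrsf13c and Tnfrsf14 with SR1078.

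Tnfrsf13c, the BAFF receptor, had 5.93 and 6.15 with SR3335, 6.67 and 6.77 with SR1078 and 5.98 and 5.87 with Veh. The SR1078 arrays lay above the other 4, which overlapped. It was higher with SR1078 than with Veh by 0.79 ± 0.14 (1.73-fold, limma adjusted p = 0.0396), and SR3335 differed from SR1078 by -0.67 ± 0.14 (1.60-fold lower, limma adjusted p = 0.0339). Genes of B cells moved alike on these arrays. The summed signal of the 3 kept B cell markers, Cd79a, Cd79b and Blk, was 600 to 630 with SR3335, 963 to 984 with SR1078 and 562 to 604 with Veh. Cd79b, part of the B cell receptor, was higher with SR1078 than with Veh by 0.62 ± 0.10 (limma adjusted p = 0.0288), while the differences of Cd79a, 1.00, and Blk, 0.83, did not pass. The part of these markers in the Tnfrsf13c result was not tested. In the first array set, where Tnfrsf13c was not detected, the sum was 202 to 287.

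**Figure D5:**
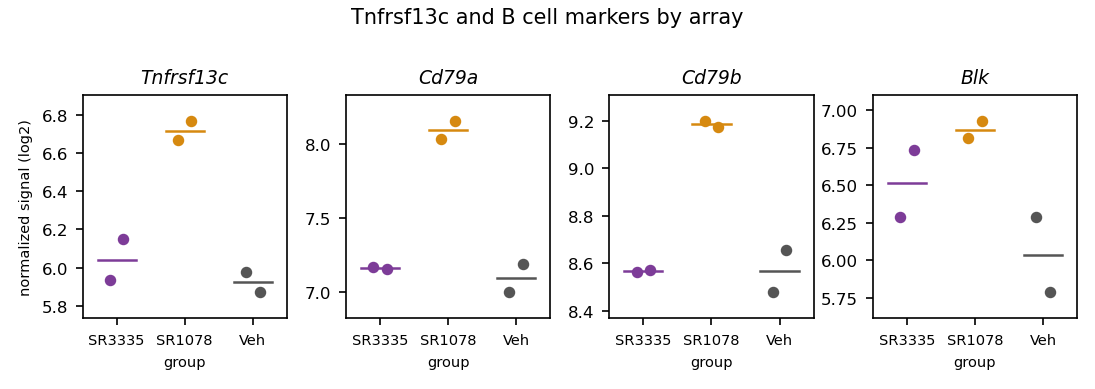
Normalized signal (log2, each panel with its own axis that does not start at 0) of Tnfrsf13c and of the 3 kept B cell markers by array for SR3335, SR1078 and Veh, with a line at each group's mean. Both SR1078 arrays are the highest in each panel.

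The compound calls were lost in most fits that left out an array, which leave 1 array in a group. Over all genes, calls were fewer in those fits too. Without any one of the arrays of the groups compared, the 3 SR3335 calls and the 2 SR1078 calls against Veh were lost, with log2 differences of 0.65 to 0.87 for Tnfrsf9, 0.54 to 0.69 for Tnfrsf12a, -0.44 to -0.37 for Tnfrsf11a, 0.74 to 0.85 for Tnfrsf13c and -0.82 to -0.52 for Tnfrsf14. Between the compounds, the calls of Tnfrsf1b (0.76 to 0.97), Tnfrsf13c (-0.78 to -0.57) and Tnfsf13b (-0.73 to -0.51) were lost without any one array. That of Tnfrsf9 was lost without SR3335 replicate 1 (0.72), SR1078 replicate 1 (0.89) or SR1078 replicate 2 (0.76), and that of Tnfrsf14 without SR3335 replicate 1 (0.65), SR3335 replicate 2 (0.79) or SR1078 replicate 2 (0.57). The direction stayed the same throughout.

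The remaining members did not pass in any compound comparison with the processing used here. Tnfsf10 had 9.67 and 9.73 with SR3335, 9.19 and 9.08 with SR1078 and 9.50 and 9.48 with Veh, and Tnfrsf11b had 8.53 and 8.69, 8.00 and 8.11, and 8.25 and 8.28 in the same groups. For both genes SR3335 lay above and SR1078 below vehicle. The compounds differed by 0.56 ± 0.17 for Tnfsf10 and by 0.56 ± 0.18 for Tnfrsf11b (limma adjusted p = 0.109 and 0.128). Both differences passed without background correction (0.48 and 0.41), in the authors' values (0.49 and 0.41) and with each array set fitted on its own (0.56 and 0.52). Both genes were bright in the second array set and dim in the first, where the range was 5.33 to 6.99 for Tnfsf10, detected on 2 of 6 arrays, and 4.84 to 5.75 for Tnfrsf11b, detected on 0 of 6. The sets differ in more than the treatment, as the hepatocyte and endothelial sums show, and were not tested against each other.

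In the pathway lists, 1 of 12 superfamily genes named otherwise was higher with SR3335 than with Veh, Cd40 (0.38 ± 0.08, limma adjusted p = 0.0382), as were 2 of 25 adaptors and regulators, Tnip1 (0.42 ± 0.09) and Tnfaip3 (0.39 ± 0.08), while Traf2 was lower (-0.43 ± 0.10), a call that was lost under 12 of 13 alternatives. Of all genes 2.09% were higher and 2.55% lower. With SR1078, 0 of 12 and 0 of 25 passed, where 1.05% of all genes were higher and 0.351% lower. Rhbdf1, a helper of Adam17, was higher with both compounds, by 0.48 ± 0.08 with SR3335 and 0.42 ± 0.08 with SR1078 (limma adjusted p = 0.0121 and 0.0416), as 1 of 5 genes of ectodomain release. Of the 6 genes of the second NF-kB pathway, 1 passed with SR3335, the same Traf2, and 0 with SR1078. Between the compounds, SR3335 exceeded SR1078 by 0.68 ± 0.08 for Cd40 (limma adjusted p = 0.00425), which had 14.25 and 14.20 with SR3335, 13.59 and 13.49 with SR1078 and 13.77 and 13.91 with Veh, and by 0.48 ± 0.11 for Fas (limma adjusted p = 0.0445). Of the adaptors 3 of 25 were higher and 0 lower (2.11% and 2.49% of all genes), led by Traf1 (0.52 ± 0.09) and Tnfaip3 (0.44 ± 0.08). Cell type markers that passed with SR3335 against Veh included Ccr7 (0.55 ± 0.13), 1 of 3 dendritic cell markers, and Nkg7 (-0.38 ± 0.08), 1 of 8 T and NK cell markers. The others were Clec1b (-0.93), 1 of 9 Kupffer cell markers, and Stab2 (-0.57 ± 0.10), 1 of 8 endothelial markers. The list medians, in that order, were 0.55, -0.07, -0.20 and -0.13. With SR1078 the passing markers were the endothelial Clec4g (-1.05 ± 0.14) and Cdh5 (0.58 ± 0.09), 1 lower and 1 higher of 8, and Cd79b (0.62), 1 of 3 B cell markers. The endothelial and B cell list medians were -0.18 and 0.83. The dendritic cell sum was 1577 to 1649 with SR3335, 1185 to 1257 with SR1078 and 1262 to 1326 with Veh. The part of these markers in the results was not tested. All calls named in the compound comparisons of these lists lost significance without at least 2 of the 4 arrays, with log2 differences of 0.32 to 0.45 for Cd40 against Veh.

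Of the 21 members, 9 had more than 1 kept probe, 12 further probes in all. Where the main probe gave a call, 8 of 13 results of a further probe also passed with the same sign, 5 missed the threshold and 0 passed with the other sign, with p-values adjusted over all kept probes. The 5 were Tnfrsf9 with LPS against M0 (0.72), with SR3335 against Veh (0.37) and between the compounds (0.66), Tnfrsf22 with LPS (0.24) and Tnfrsf1b between the compounds (0.42). Where the main probe gave none, 2 of 59 results passed, namely a Tnfrsf1a probe with IL-4 against M0 (0.70 ± 0.17, limma adjusted p = 0.0227) and a Tnfrsf10b probe with SR1078 against Veh (0.50 ± 0.09, limma adjusted p = 0.048). Every further, dimmer Tnfrsf10b probe was higher with both compounds than with Veh, by 0.50 to 0.85 with SR1078 and 0.34 to 0.65 with SR3335. The main Tnfrsf10b probe gave 0.27 and 0.31.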

How the data were processed

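Bead signals are intensity values that the authors deposited on 12 arrays, made with GenomeStudio 2011.1 per the submitters' processing notes, without normalization as the values show. A detection p-value stands beside each signal, per the file headers. Further steps and the genome build are not given in the sources used here. The authors also deposited log2 values, which quantile normalization of the signals within each set of 6 arrays reproduced to within 0.011 for 25667 probes. These were an alternative.

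With limma 3.58.1 in R 4.3.3, signals were corrected by normexp using background levels estimated through the detection p-values (offset 16), quantile-normalized over 12 arrays and put on the log2 scale. Of 13678 probes kept, the brightest per gene gave 10255 genes. One mean per group was fitted (6 residual degrees of freedom), with Benjamini-Hochberg adjustment over all genes and a call at an adjusted p under 0.05. Where a group was undetected on both arrays, a fold is a lower bound against the dimmest detected signal. Every kept member is named. Those passing a call with a log2 difference of at least 0.5 or a bound were described in full, and of each pathway list the 2 to 4 largest passing changes. The members and gene lists (superfamily genes named otherwise, adaptors, ectodomain release, second NF-kB pathway, and markers of 8 cell types) were chosen with earlier results of these data known. Other background correction, scaling, filter, probe and variance choices, each array set alone, a replicate block and leaving out each array were tried. Deviations of arrays with the same replicate number correlated at -0.02 to 0.10 within a set, and the main fit used no replicate block. With 2 arrays per group these correlations cannot show whether arrays shared a mouse or culture.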

Additional observations from a re-analysis of the deposited data

How the results depend on the processing

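Of 34 calls of members over 6 comparisons, 13 passed under every alternative run, and 21 were lost under at least 1. No called difference changed sign. The 13 were Tnfsf9, Tnfsf10, Tnfsf13b, Tnfrsf9 and Tnfrsf1b for LPS against M0, Tnfrsf12a and Tnfsf13b for IL-4 against M0, and Tnfsf9, Tnfsf10, Tnfrsf9, Tnfrsf11a, Tnfrsf12a and Tnfrsf14 for LPS against IL-4. In brackets below is the share of all genes called in the same fit. For SR1078 against Veh, 2 members were called as reported (1.40%). The count was 1 with median centring (1.21%), 4 with the authors' values (5.06%) and 0 with no filter on dim probes (0.442%). It was 4 with a stricter filter (2.67%), 1 with each array set on its own (1.57%) and 1 with the replicate block (0.897%). For SR3335 against Veh, 3 as reported (4.63%), it was 5 with each array set on its own (5.96%). For SR3335 against SR1078, 5 as reported (4.59%), it was 2 with no filter (1.64%). It was 7 with the authors' values (8.97%) and 7 with each array set on its own (6.41%), both with Tnfsf10 and Tnfrsf11b gained. For IL-4 against M0, 5 as reported (19.6%), it was 8 of 33 probes when every kept probe was tested (17.3% of all kept probes). It was 2 with each array set on its own (6.76%). With the filter removed, more genes share the adjustment. For the other settings the cause was not tested. Leaving out 1 array left a group with 1 array, so counts of members called are not given for those fits. With an array left out, its partner is taken to have the spread of the remaining groups. Whether arrays with the same replicate number belong together is not stated. With the replicate block the other counts were 8 for LPS against M0 (29.5%), 5 for IL-4 against M0 (17.9%) and 10 for LPS against IL-4 (35.2%). They were 2 for SR3335 against Veh (3.46%) and 4 for SR3335 against SR1078 (3.64%). In the median-centred fit the median of all genes was -0.13 for LPS minus M0 and within 0.08 of 0 otherwise. Of 21 members, 15 were detected on all 12 arrays, so differences of Tnfsf10, Tnfsf11, Tnfsfm13, Tnfrsf11b, Tnfrsf13c and Tnfrsf14 are limited by signal near background in at least 1 group.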
